A study of Mus musculus with 3 samples.

Results

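Fibroblast growth factor (FGF) signalling in the preimplantation embryo was described through 10 genes, which are the ligand Fgf4, the receptors Fgfr1, Fgfr2 and Fgfr3, the adaptor Grb2, the transcription factors Etv4 and Etv5, and the feedback inhibitors Spry2, Spry4 and Dusp6. They were chosen by name, and every array probe whose RefSeq accession maps to one of them was taken. This gave 16 probes for 10 of the 23458 genes named on the array. All 16 probes had a value on every array, and 15 of them were well above background on all 3 arrays. Fgfr1 had 4 probes, Fgfr2, Fgfr3 and Spry2 had 2 each, and the other 6 genes had 1.

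The 3 conditions were measured on 1 array each, from pools of 30 expanded blastocysts of ICR mice. Zygotes were flushed from superovulated and mated females and cultured in KSOM medium for 96 h. The mothers were 3 to 6 weeks old for young embryos and 43 to 53 weeks old for both aging groups. Young and aging embryos received no treatment, whereas the medium of suppressed aging embryos held a neutralizing antibody to CXCL5 (10 μg/ml) together with a selective antagonist of CXCR2 (10 nM). CXCL5 is a chemokine and CXCR2 is its receptor. A pool of embryos has no biological replicate here, no test between conditions was possible, and no P-value is given. On these arrays the antibody and the antagonist were given together, so the effects of each agent cannot be told apart, and no array held treated young embryos.

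FGF4 is secreted by the inner cell mass of the blastocyst and binds FGFR1 and FGFR2 on neighbouring cells. The activated receptor recruits the adaptor GRB2 and the exchange factor SOS, which switch on RAS and then the kinases RAF, MEK and ERK. In the mouse inner cell mass, high ERK activity is known to direct cells to primitive endoderm and low activity to epiblast, and FGF4 also maintains trophectoderm stem cells. ERK induces the ETS factors ETV4 and ETV5, the phosphatase DUSP6, which removes phosphate from ERK, and the Sprouty proteins SPRY2 and SPRY4, which dampen the pathway upstream of ERK. Transcripts of these feedback genes are therefore often read as markers of pathway activity. Arrays measure RNA only, and phosphorylated ERK was not measured on them.

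The regulatory DNA upstream of 3 genes is printed here because these genes stand for the ligand (Fgf4), for an ERK target with a higher level on both aging arrays than on the young array (Etv5) and for one with a lower level on both (Dusp6). Each sequence is the 250 bases before a RefSeq transcription start in GRCm38.p6, written 5′ to 3′ along the gene, and capitals mark the GC box GGGCGG or its reverse complement CCGCCC. Etv5 has a further start with its own window, which holds no GC box.
Fgf4, chr7:144861136-144861385, plus strand: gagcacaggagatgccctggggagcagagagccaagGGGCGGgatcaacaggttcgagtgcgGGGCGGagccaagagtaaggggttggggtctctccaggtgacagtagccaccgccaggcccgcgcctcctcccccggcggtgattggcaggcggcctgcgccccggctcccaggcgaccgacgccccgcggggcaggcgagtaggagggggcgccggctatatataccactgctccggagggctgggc
Etv5, chr16:22439571-22439820, minus strand: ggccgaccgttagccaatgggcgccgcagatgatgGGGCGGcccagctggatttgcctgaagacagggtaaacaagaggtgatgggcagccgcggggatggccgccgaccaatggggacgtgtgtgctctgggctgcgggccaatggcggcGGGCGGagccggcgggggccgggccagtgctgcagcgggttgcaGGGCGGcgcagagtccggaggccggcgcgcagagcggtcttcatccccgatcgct
Dusp6, chr10:99262981-99263230, plus strand: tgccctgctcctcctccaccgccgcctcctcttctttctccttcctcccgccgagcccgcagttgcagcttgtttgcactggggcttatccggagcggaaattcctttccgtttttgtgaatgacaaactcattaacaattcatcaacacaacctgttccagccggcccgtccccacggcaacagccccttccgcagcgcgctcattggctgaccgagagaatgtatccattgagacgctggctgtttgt

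The window of Fgf4 held 2 GC boxes, that of Etv5 held 3 and that of Dusp6 held none, with a GC content of 71.2%, 71.2% and 56.4%. Over all 32851 mouse promoter windows of this length the median GC content was 52.4%, and 32.7% held at least 1 GC box on either strand. Windows were at hand for 7 of the 10 genes (10 windows), of which 4 held a GC box (Fgf4, Etv5 and both windows of Fgfr3). The motif CCGGAA or TTCCGG is 1 form of the GGAA site that ETS factors such as ETV4 and ETV5 can bind. It was in none of the 10 windows and in 12% of all windows. Other forms of the site were not counted, and the letters GGAA do occur in the printed window of Dusp6. The TATA motif TATAAA or TTTATA was in 1 of the 10, a window of Grb2, and in 12.4% of all. Other forms of this motif were not counted either, and the letters TATATATA do occur in the printed window of Fgf4. The cyclic AMP response element TGACGTCA was in none of the 10 and in 1.55% of all. These are matches of letters in short windows.

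Values below are log2 levels, that is, the log2 scanner intensity minus the 75th percentile of its array, so that 0 is the level of that percentile. This percentile was an intensity of 145 (young), 155 (aging) or 122 (suppressed aging), and between 56.4% and 58.7% of probes were well above background. The lowest level above background was between -4.32 and -3.93. Levels of different probes cannot be set against each other, so only differences of the same probe between arrays are compared. The ± values are the error that the scanner software gives to a spot, carried to the difference. They cover the hybridization and not the embryos. A difference is called large when it is over 2-fold, which is a log2 difference over 1, and a gene with several probes stands by the probe with the highest mean level.

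Fgf4, the ligand, was higher in aging than in young blastocysts. Its level was -0.32 in young, 0.80 in aging and 0.13 in suppressed aging blastocysts, which are intensities of 116, 269 and 134. Aging was the highest of the 3, and the suppressed aging level lay between the others. The difference of aging minus young was 1.12 ± 0.21 (2.17-fold), the largest positive difference of a member in this comparison. Suppressed aging was below aging by a log2 difference of -0.67 ± 0.21 and above young by 0.44 ± 0.21, both under 2-fold. Neither Fgf4 nor any other member can be given an error between embryos from these arrays.

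Of the 22 FGF family genes on the array, 8 were well above background on all 3 arrays. Besides Fgf4 these were Fgf1, Fgf3, Fgf8, Fgf10, Fgf11, Fgf21 and Fgf23. The only Fgf23 probe was very bright and nearly level, at 7.45 in young, 7.32 in aging and 7.45 in suppressed aging blastocysts. Whether it reads only Fgf23 was not tested. A further 10 were above background on no array, among them Fgf2, Fgf5 and Fgf9, and 4 (Fgf13, Fgf14, Fgf18 and Fgf22) on only 1 or 2. The 21 family genes other than Fgf4 form the group called FGF ligands below. Which of them encode ligands of the FGF receptors was not tested. Of the 21, 9 could be compared between aging and young, and 0 of these were over 2-fold apart, beside 19 percent of all genes.

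**Figure D1:**
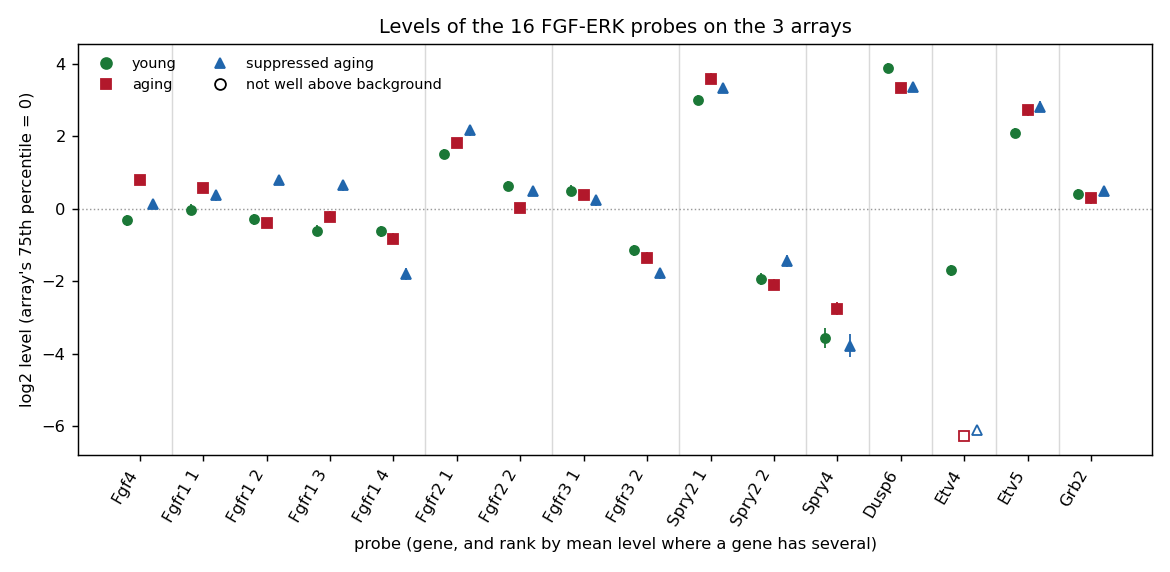
Level of each of the 16 probes on the young (circles), aging (squares) and suppressed aging (triangles) arrays, on a log2 axis where 0 is the array's 75th percentile. Bars are the scanner error of the spot, open symbols are not well above background, and heights of different probes are not comparable. Fgf4 was highest in aging at 0.80, Etv4 was above background only in young at -1.70, and the 4 probes of Fgfr1 ordered the arrays differently.

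The receptors differed in size and direction, and for Fgfr1 the probes disagreed. FGFR1 is the receptor found throughout the inner cell mass. Its brightest probe had levels of -0.02 in young, 0.57 in aging and 0.37 in suppressed aging blastocysts. The second probe had -0.29, -0.40 and 0.79. The third had -0.60, -0.22 and 0.65, and the fourth had -0.62, -0.83 and -1.80. Aging was highest on the first probe, suppressed aging on the second and the third, and young on the fourth.

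For aging minus young, the 4 differences of Fgfr1 were between -0.21 and 0.59, with 2 probes higher and 2 lower. They were -0.20, 1.19, 0.87 and -0.97 for suppressed aging minus aging, and for suppressed aging minus young 0.39, 1.08, 1.25 and -1.17. The probes of this 1 gene were thus 2.43 apart on the log2 scale in the last comparison, against scanner errors of about 0.21. Over all genes with 2 measured probes, the median gap between the differences of the pair was 0.54 for aging minus young (4861 genes), 0.53 for suppressed aging minus aging (4830 genes) and 0.48 for suppressed aging minus young (4817 genes), and the pair moved the same way in only 56.7%, 54.8% and 56.1% of genes. No direction is given for Fgfr1.

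FGFR2 is the receptor of primitive endoderm and trophectoderm. Its brighter probe had levels of 1.52 in young, 1.82 in aging and 2.17 in suppressed aging blastocysts. The other had 0.64, 0.02 and 0.50. Suppressed aging was above aging on both probes, by 0.35 and 0.48, while aging minus young was 0.30 on one and -0.62 on the other.

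Fgfr3 encodes a further FGF receptor, and its 2 probes ordered the arrays alike. The brighter had levels of 0.51 in young, 0.38 in aging and 0.23 in suppressed aging blastocysts, and the dimmer had -1.15, -1.35 and -1.78. Young was highest and suppressed aging lowest on both. The differences of aging minus young were small (-0.12 and -0.19, each within 1 scanner error), and those of suppressed aging minus young were -0.27 ± 0.21 and -0.63 ± 0.22.

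Grb2, the adaptor that links the receptor complex to SOS, was nearly level. It had 0.41 in young, 0.29 in aging and 0.49 in suppressed aging blastocysts, and its differences were -0.12, 0.20 and 0.08, none larger than the scanner error of 0.20. Other links of the chain were also under 2-fold apart. Frs2, the docking protein of the receptor, differed by 0.13 for aging minus young and by 0.23 for suppressed aging minus aging. The values were 0.15 and 0.19 for Ptpn11, the phosphatase SHP2 that promotes RAS activation, and -0.10 and 0.53 for Sos1, the exchange factor. They were 0.73 and -0.29 for Mapk3, which encodes the kinase ERK1. None of these 5 genes was over 2-fold apart in any comparison.

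The ETS factors Etv4 and Etv5 differed in opposite directions. Etv4 had a level of -1.70 in young blastocysts (intensity 44.5) and was not well above background in aging (-6.28, intensity 1.99) or suppressed aging blastocysts (-6.11, intensity 1.77). Against the detection limit of each array, Etv4 was at least 6.14-fold lower in aging and at least 4.69-fold lower in suppressed aging than in young blastocysts. Under normexp background correction, another method that shrinks differences of dim spots, the log2 differences were -0.83 and -0.53, both under 2-fold. That method adds an offset of 50, more than the intensity of 44.5 in young, so it could hardly give a 2-fold difference here. It therefore does not decide these calls. The normexp values of other dim genes given below are shrunken by the same offset. No difference between the aging arrays can be given. Etv4 had 1 probe of 1 spot, so no other probe checks this difference.

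Etv5, the close relative of Etv4, had levels of 2.09 in young, 2.72 in aging and 2.82 in suppressed aging blastocysts. Young was the lowest, and the other two were 0.11 ± 0.20 apart. Aging minus young was 0.63 ± 0.20 and suppressed aging minus young 0.74 ± 0.20, which are 1.55-fold and 1.67-fold. Etv1, the remaining gene of this subfamily, was like Etv4 above background in young (-2.83) and not in aging (-6.39), a difference of at least 2.81-fold (a log2 difference of -0.44 with normexp), but it was above background in suppressed aging blastocysts (-3.61).

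The feedback inhibitors also differed among themselves. Dusp6, the ERK phosphatase, had levels of 3.89 in young, 3.34 in aging and 3.36 in suppressed aging blastocysts. Young was the highest, and the other two differed by 0.02 ± 0.20. Aging minus young was -0.55 ± 0.20 and suppressed aging minus young -0.53 ± 0.20, or 1.47-fold and 1.44-fold lower.

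Spry2 had levels of 3.00 in young, 3.60 in aging and 3.35 in suppressed aging blastocysts on its brighter probe, and of -1.94, -2.10 and -1.44 on the other. The brighter probe was highest in aging and the other in suppressed aging blastocysts. Both probes put suppressed aging above young, by 0.34 and 0.50. They gave opposite signs for aging minus young (0.59 and -0.16) and for suppressed aging minus aging (-0.25 and 0.66), so no direction is given for these.

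Spry4 had levels of -3.57 in young, -2.76 in aging and -3.78 in suppressed aging blastocysts, which are intensities of 12.2, 22.8 and 8.92. All 3 signals were dim, and aging was the highest. Aging minus young was 0.81 ± 0.33 and suppressed aging minus aging -1.02 ± 0.37, or 2.03-fold lower, with the largest scanner errors among the 9 genes with a measured difference. Under normexp these values were 0.12 and -0.07.

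**Figure D2:**
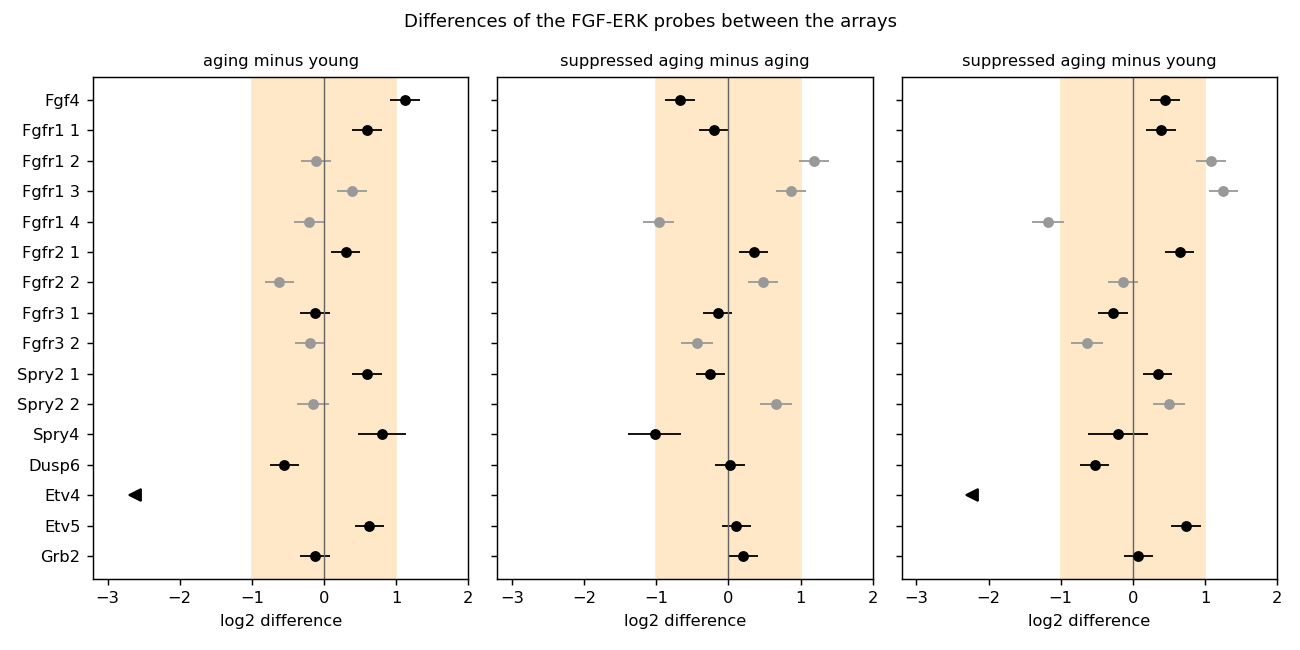
Log2 difference of each probe for aging minus young, suppressed aging minus aging and suppressed aging minus young. Black points are the probes that stand for a gene, grey points its other probes, bars 1 scanner error, triangles bounds for a gene below background on 1 array, and the shaded band is under 2-fold. Fgf4 at 1.12 and Etv4 at the bound of -2.62 lie outside the band for aging minus young, and the grey probes of Fgfr1 spread from -1.17 to 1.25 for suppressed aging minus young.

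Counted together, 2 of the 10 genes were over 2-fold apart between aging and young, Fgf4 upward and Etv4 downward. Of all 16164 genes compared, 19 percent were, 9.86 percent upward and 9.19 percent downward. Between suppressed aging and aging 1 of 9 genes (Spry4, downward) was over 2-fold apart, where 17.3 percent of 15875 genes were, 8.77 percent upward and 8.5 percent downward. Between suppressed aging and young 1 of 10 (Etv4, downward) was, where 16.3 percent of 15931 genes were, 8.67 percent upward and 7.64 percent downward. The shares of the 10 genes are near those of all genes in each comparison. At 1.5-fold 6, 2 and 3 members passed in the 3 comparisons, beside 38.6, 35.8 and 34.3 percent of all genes, and at 5-fold 1, 0 and 0, beside 2.59, 2.29 and 2.43 percent. With genes above background on both arrays only, the 2-fold counts were 1, 1 and 0, beside 15.6, 14.2 and 13.5 percent. Any pair of comparisons shares an array, so they are not independent.

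The median difference of the members was 0.44 for aging minus young, -0.15 for suppressed aging minus aging and 0.21 for suppressed aging minus young, beside 0.03, -0.0034 and 0.03 over all genes. The median size regardless of sign was 0.59, 0.20 and 0.42, beside 0.44, 0.41 and 0.39. With the average of all its probes in place of the brightest probe of a gene, the medians were 0.022, 0.11 and 0.17.

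The lineages of the blastocyst were all present on the arrays. The 12 markers of trophectoderm, 10 of epiblast and 10 of primitive endoderm were well above background on every array. Between aging and young, 3 of the 12 trophectoderm markers were over 2-fold apart, all lower in aging (median of the list -0.20), and 3 of the 10 epiblast markers were, all higher (median 0.31). Of the 10 primitive endoderm markers 1 was higher and 1 lower (median 0.04). Of all genes compared, 19 percent were over 2-fold apart, 9.86 percent higher and 9.19 percent lower, so counts in lists this short are not read as a shift of lineages. The summed linear level, in multiples of the 75th percentile, ranged from 534 in aging to 681 in young for trophectoderm, from 1081 in young to 1304 in aging for epiblast and from 77.1 in young to 83.6 in aging for primitive endoderm. Fgf4 is a gene of the epiblast, and its level and the summed level of the epiblast markers were highest on the same array. That array, aging, was the highest for 35.8 percent of 16603 genes. Most of the epiblast sum came from the Nanog probe, with log2 levels of 9.88 in young, 10.14 in aging and 10.03 in suppressed aging blastocysts. Between aging and young, 8 of the 10 epiblast markers were higher and 2 lower, where 8394 of all 16164 genes were higher. The part of these markers in the difference of Fgf4 was not tested. In pooled embryos, fewer cells of a type and less RNA per cell cannot be told apart.

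Markers of cells from outside the embryo were also read. Of the 9 cumulus and granulosa cell markers, Cyp19a1, Foxl2 and Amh were above background on all arrays and the other 6, Fshr and Inha among them, on none. The list summed to between 374 and 438, nearly all of it from the Foxl2 probe, which had log2 levels of 8.66 in young, 8.54 in aging and 8.77 in suppressed aging blastocysts. Sums of different lists rest on different probes and cannot be set against each other. Blood markers summed to between 2.25 and 5.86, with 3, 3 and 2 of 5 above background in young, aging and suppressed aging blastocysts. Hba-a1 and Cd68 were above background on all arrays, Alas2 on the young and aging arrays, and Hbb-bt and Ptprc on none. Maternal oocyte transcripts summed to 0.896 in young, 2.13 in aging and 1.16 in suppressed aging blastocysts. In that order 5, 6 and 4 of 10 were above background, with Zp1, Oosp1, Zar1 and Mos on none. The part of these marker lists in the values of the FGF genes was not tested.

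The wider pathway was read through 108 further genes grouped by role, with Spred1 counted both as an inhibitor and as an ERK target. Between aging and young, 20 of 85 that could be compared were over 2-fold apart, 12 higher and 8 lower. The count was 21 of 89 for suppressed aging minus aging (13 higher and 8 lower), and for suppressed aging minus young 23 of 88 (16 higher and 7 lower). The medians were 0.10, -0.0019 and 0.13. These shares are somewhat above the 19, 17.3 and 16.3 percent over all genes, and no test was made of that.

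By role, the receptors and coreceptors other than the members and the ERK targets held the largest shares between aging and young, with 4 of 7 and 7 of 13 over 2-fold apart. These groups are small, and 2 of the 13 ERK target values are bounds. Under normexp 4 of the 85 wider pathway genes were over 2-fold apart between aging and young, beside 5.25 percent of all genes. The count was 5 of 89 for suppressed aging minus aging, beside 4.67 percent. For suppressed aging minus young it was 13 of 88, beside 4.55 percent. The ranking of roles was not tested. Between aging and young the other groups had 0 of 9 in the FGF ligand group, 3 of 14 heparan sulfate genes and 1 of 11 adaptors. They also had 2 of 17 genes from RAS to ERK and 4 of 15 inhibitors. Heparan sulfate is the sugar chain that FGF needs to bind its receptor. Between suppressed aging and aging the counts were 3 of 7 receptors and coreceptors, all lower, 3 of 11 ligands, 6 of 16 heparan sulfate genes, 0 of 11 adaptors, 3 of 17 genes from RAS to ERK, 3 of 15 inhibitors and 3 of 13 ERK targets. Against young, suppressed aging had 2 of 7, 2 of 10, 8 of 16, 0 of 11, 4 of 17, 6 of 16 and 2 of 12 in that order.

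**Figure D3:**
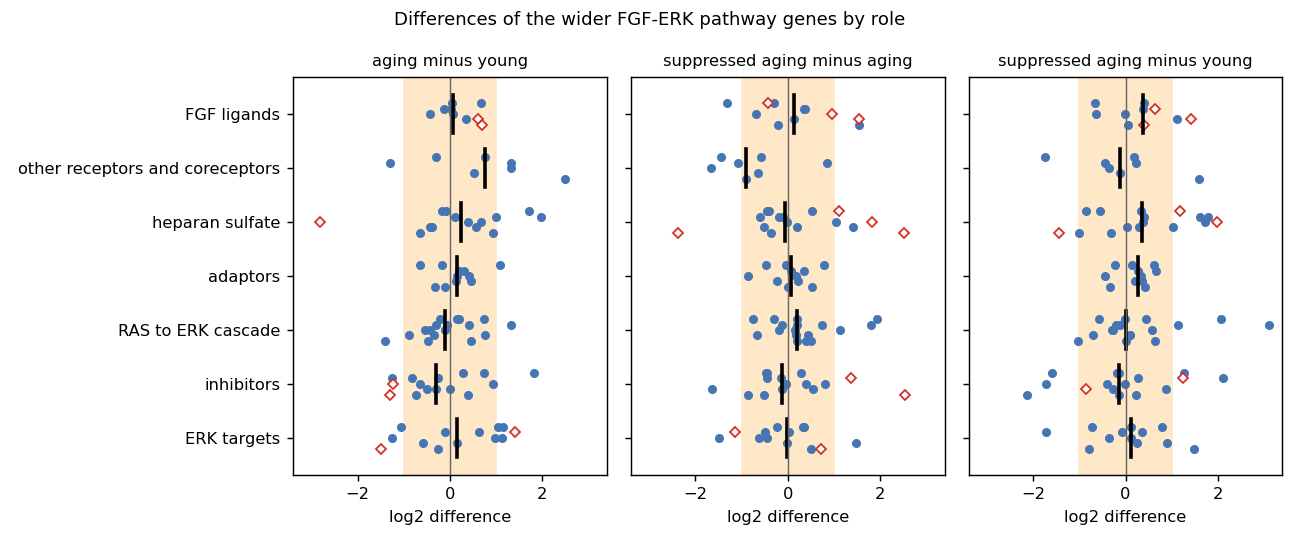
Log2 difference of each gene of the wider pathway in the 3 comparisons, grouped by role. Filled points are measured, open diamonds are bounds, black bars the median of a group, and the shaded band is under 2-fold. All 11 adaptors lay inside the band on both comparisons with suppressed aging, and the receptors and coreceptors had a median of 0.76 for aging minus young and of -0.90 for suppressed aging minus aging.

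Among the receptors and coreceptors, Flrt1, a transmembrane protein that binds FGF receptors, had the largest positive difference of aging over young. Its levels were 0.00076 in young, 2.50 in aging and 1.60 in suppressed aging blastocysts, a difference of 2.50 for aging minus young that the other probe of the gene also gave (2.18). Fgfr4, the fourth FGF receptor, had levels of -0.66, 0.66 and -1.01. Its suppressed aging minus aging difference was -1.67, and its other probe gave -1.16. Flrt3, a relative of Flrt1, was lower in suppressed aging than in young blastocysts by a log2 difference of -1.74.

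Among the heparan sulfate genes, Ext2, a polymerase of the chain, differed by 1.98 for aging minus young. Sulf1, an enzyme that trims sulfate from the chain, was 7.08-fold lower in aging than in young blastocysts, where it had a level of -1.40. It was above background in suppressed aging blastocysts (-1.71), 5.71-fold higher than in aging. Both sizes are taken against its own aging level of -4.23, which was not well above background, and are not minima. Under normexp background correction these log2 differences were -0.74 and 0.63, both under 2-fold. Gpc3, a glypican that carries such chains, was at least 5.19-fold lower in suppressed aging than in aging blastocysts, but with normexp its log2 difference was -0.42.

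From RAS to ERK, Ksr2, a scaffold of RAF and MEK, was higher in suppressed aging than in aging blastocysts by 1.92 and than in young by 2.07. Rps6ka2, a kinase that ERK activates, was lower in aging than in young (-1.41, and -0.43 with normexp). One probe of Braf, a RAF kinase, gave 3.11 for suppressed aging minus young, the largest difference of the wider list, but its other 2 probes gave -0.23 and 0.41.

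Among the inhibitors, Il17rd, a transmembrane inhibitor of FGF signalling, gave 1.83 for aging minus young and 2.12 for suppressed aging minus young on its brighter probe and -1.28 and -0.87 on the other, so it has no settled direction. Rasa2, which turns RAS off, was 5.85-fold higher in suppressed aging than in aging blastocysts. This size is taken against its own aging level of -4.18, which was not well above background, and is not a minimum. Its other probe gave a log2 difference of 1.71, while normexp gave 0.72 for the first. Dusp7, an ERK phosphatase like Dusp6, was lower in suppressed aging than in aging (-1.65) and in young blastocysts (-2.14), which normexp reduced to -0.35 and -0.71. Spred1, a Sprouty-related inhibitor, was lower in suppressed aging than in young blastocysts by a log2 difference of -1.72. The named differences of Flrt1, Flrt3, Fgfr4, Ext2, Ksr2 and Spred1 were over 2-fold under every alternative that gave a value. Flrt3, Ext2 and Ksr2 had 1 probe each, and the other probe of Spred1 gave no value, so no other probe checks their differences. Spred1 was at -1.02 under normexp.

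The values of the 10 genes were recomputed under other ways of processing the arrays. For Fgf4, aging minus young was between 0.86 and 1.16 and over 2-fold in 8 of 9 of them, the exception being normexp background correction. For Etv4 it was between -4.58 and -0.83, and over 2-fold in 7 of 8, again except under normexp. The normexp offset of 50 also shrinks the difference of Fgf4, whose intensities were 116 in young and 269 in aging. These exceptions therefore do not decide the calls. Aging minus young of Dusp6 (-0.56 to -0.51) and Etv5 (0.57 to 0.67) moved little. For aging minus young Fgfr2 changed sign, with -0.16 as the mean of its probes. That mean also changed the sign of Fgfr1 (0.22) and Spry2 (0.20) for suppressed aging minus aging.

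**Figure D4:**
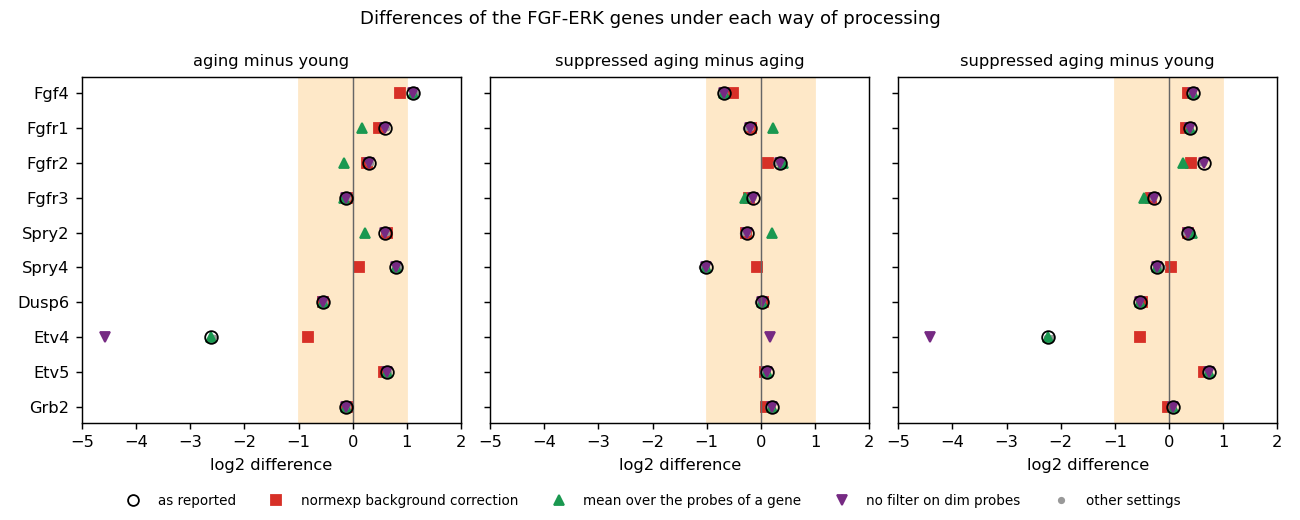
Log2 difference of each of the 10 genes in the 3 comparisons as reported (open circles) and under other ways of processing, with the shaded band under 2-fold. Fgf4 for aging minus young moved from 1.12 to 0.86 under normexp background correction (squares), Etv4 without a filter on dim probes (downward triangles) was at -4.58, and averaging a gene's probes (upward triangles) brought Fgfr2 to -0.16.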

How the data were processed

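Blastocyst RNA was hybridized to 1-colour Agilent mouse arrays (Cy3), 3 arrays on 1 slide. The deposited intensity of a spot is on a linear scale, background-subtracted and detrended by the authors with Agilent Feature Extraction 12.0.3.1. Their value table held the same intensity times 1 constant per array (3.46, 3.34 and 3.96 for the young, aging and suppressed aging arrays). The labels name a low-input labelling kit and the paper's methods a single-primer global PCR, and the arrays alone cannot settle which it was. Amplification can change ratios of rare transcripts.

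Control spots and spots marked as outliers were left out, intensities were converted to log2, spots of a probe averaged and the array's 75th percentile subtracted. Accessions named 33759 of 56591 probes through a RefSeq table of GRCm38.p6. A gene above background on 1 of 2 arrays was given a bound against the higher of the lowest level above background on the dim array and the probe's own level. Where the probe's own level was the higher, the value is not a minimum. With 1 array per condition no test was made, and sizes over 2-fold were counted. The precision is limited by the number of arrays. Promoter sequences are from RefSeq (GRCm38.p6). Other genes named are the 3 largest over 2-fold per direction and comparison, genes linking the members, and for Fgf4 the 3 most alike. Not every linking gene is reported here. The members and lists were chosen with earlier results of these data known. The procedure was tested on simulated data. The 11 alternatives were quantile normalization, normexp (limma 3.58.1, offset 50), the median of detected probes or the mean of 15 housekeeping genes as the centre, the authors' processed values, outlier spots kept, the mean over probes, probes above background on both arrays, no filter, and thresholds of 5-fold and 1.5-fold. Python 3.11.15 (NumPy 2.4.6, pandas 2.3.3, Matplotlib 3.10.9) and R 4.3.3 were used.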

Additional observations from a re-analysis of the deposited data

How the results depend on the processing

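No paired analysis was possible because there was only 1 array per condition, and for this reason no replicate could be left out. The counts of the 10 genes over 2-fold apart were 2 for aging minus young, 1 for suppressed aging minus aging and 1 for suppressed aging minus young. They were 0, 0 and 0 under normexp background correction, under which only 5.25%, 4.67% and 4.55% of all genes were over 2-fold apart, 1, 0 and 0 at a 5-fold threshold and 6, 2 and 3 at a 1.5-fold threshold. The normexp offset of 50 shrinks the differences of Fgf4, Etv4 and Spry4, so its counts of 0 do not decide these calls. With probes above background on both arrays only, the first and last counts were 1 and 0, since Etv4 then had no value, and under quantile normalization the second was 0. Of the wider pathway, the counts of 20 of 85, 21 of 89 and 23 of 88 became 4, 5 and 13 under normexp. At 5-fold they were 2, 3 and 1, beside 2.59, 2.29 and 2.43 percent of all genes. At 1.5-fold they were 40, 36 and 37, beside 38.6, 35.8 and 34.3 percent. With probes above background on both arrays only, the second was 13 of 78, beside 14.2 percent. The median difference of the 10 genes for aging minus young (0.44) was 0.19 under normexp, 0.022 with the mean over probes and 0.59 with both arrays above background. Between suppressed aging and aging (-0.15) it was -0.073 under normexp, -0.24 with the authors' values, 0.11 with the mean over probes and -0.064 with no filter. Between suppressed aging and young (0.21) it was 0.34 with both arrays above background. Without a filter the median of all genes shifted to -0.11 for aging minus young and to 0.13 for suppressed aging minus aging. Where no construction of the alternative is named, the cause was not tested. Dim signals limit Spry4 and Etv4 most, since both lie near or under the lowest level above background on at least 1 array.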

Other observations

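Among 19705 probes with a gene name and a level above background on all 3 arrays, the genes whose centred levels were closest to those of Fgf4 were Ppt2 (root mean square distance 0.0013 on the log2 scale), Tigd3 (0.0065) and Agpat2 (0.0097). Ppt2 had levels of 0.41 in young, 1.53 in aging and 0.86 in suppressed aging blastocysts, Tigd3 had -3.73, -2.62 and -3.29, and Agpat2 had 1.87, 3.01 and 2.32. Aging was the highest and young the lowest for each, as for Fgf4. In all, 272 of the 19705 probes were within 0.1 of Fgf4, so a likeness over 3 points is common on these arrays.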
